A study of Mus musculus with 28 samples.

Results

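Neuropeptide Y and its receptors were examined as a set of 4 genes among the 49477 gene identifiers shared by the count tables of the series: Npy, which encodes the peptide, and Npy1r, Npy2r and Npy5r, which encode the Y1, Y2 and Y5 receptors. The members were taken by gene symbol in GENCODE M21, with no use of their measured values. Earlier results of these data were known when they were chosen. All 4 passed the filter on low counts, set at an average of 10 counts per mouse, so that 16266 genes were tested.

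RNA was sequenced from bilateral micropunches of the whole amygdala, central and basolateral nuclei together, of 28 adult female C57BL6/J mice with no genetic change, bought at 7 weeks of age in 2 separate batches. Over a drinking period of 28 days, 10 Water mice (4 in the first batch, 6 in the second) had 2 tubes of water, 9 Acute mice (4 and 5) had a tube of 20% ethanol beside water on the last day only, and 9 Chronic mice (3 and 6) could choose 20% ethanol or water every other day. Tissue was taken on day 29, each library being 1 mouse. The design asks whether a single drinking session, or repeated intermittent drinking, goes with other transcript levels in the amygdala than water alone. The punch is a mixture of nuclei and cell types, and in such bulk tissue fewer cells of a type and less RNA per cell cannot be told apart.

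Neuropeptide Y is a short amidated peptide that neurons release along with classical transmitters. In the forebrain it is made mainly by GABAergic interneurons, many of which also make somatostatin, and in rodents its action in the amygdala is known for lowering anxiety-like behavior and for its links with alcohol intake. Its receptors couple to inhibitory G proteins; Y1 and Y5 sit largely on receiving neurons, whereas Y2 is also found on axon terminals, where it restrains release of the peptide and of other transmitters.

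Npy (ENSMUSG00000029819.6) lies on the plus strand of chromosome 6 at 49822710 to 49829507 of GRCm38, with 566 bp of exon in 1 annotated transcript. Npy2r (ENSMUSG00000028004.12) lies on the minus strand of chromosome 3 at 82538383 to 82548084. Npy1r (ENSMUSG00000036437.6), on the plus strand of chromosome 8 at 66697192 to 66706792, and Npy5r (ENSMUSG00000044014.9), on the minus strand at 66679965 to 66688128, are neighbours that point away from each other across a gap of 9063 bp. None of the 4 overlaps another annotated gene. All are protein coding, and counts were summed over the transcripts of each gene.

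The windows around their transcription starts are shown so that the start regions of the ligand, of the divergent receptor pair and of Npy2r can be set beside the levels below. Each runs from 250 bases before the RefSeq start to 50 bases after it (GRCm38.p6), 5′ to 3′ on the gene's own strand. Capitals mark a GC box (GGGCGG, either strand) in Npy and Npy2r and an E-box (CACGTG) in Npy5r.
Npy, chr6:49822460-49822759, plus strand: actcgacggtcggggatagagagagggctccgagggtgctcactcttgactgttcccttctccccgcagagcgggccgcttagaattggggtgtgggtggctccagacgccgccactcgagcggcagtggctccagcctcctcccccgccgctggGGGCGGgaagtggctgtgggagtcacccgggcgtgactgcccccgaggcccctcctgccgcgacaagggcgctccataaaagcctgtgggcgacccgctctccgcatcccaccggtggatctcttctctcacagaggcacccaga
Npy1r, chr8:66697172-66697471, plus strand: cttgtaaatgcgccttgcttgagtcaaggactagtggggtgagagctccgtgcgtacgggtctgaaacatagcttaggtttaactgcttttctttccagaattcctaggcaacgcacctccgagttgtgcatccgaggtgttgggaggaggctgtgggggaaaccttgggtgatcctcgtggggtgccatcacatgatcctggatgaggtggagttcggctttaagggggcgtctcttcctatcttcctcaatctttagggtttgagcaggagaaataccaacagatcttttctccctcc
Npy5r, chr8:66688045-66688344, minus strand: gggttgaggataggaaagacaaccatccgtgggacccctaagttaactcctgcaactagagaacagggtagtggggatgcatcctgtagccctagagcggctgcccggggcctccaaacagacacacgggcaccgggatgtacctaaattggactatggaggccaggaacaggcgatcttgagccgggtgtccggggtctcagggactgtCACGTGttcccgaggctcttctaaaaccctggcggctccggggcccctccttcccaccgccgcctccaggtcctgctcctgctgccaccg
Npy2r, chr3:82548036-82548335, minus strand: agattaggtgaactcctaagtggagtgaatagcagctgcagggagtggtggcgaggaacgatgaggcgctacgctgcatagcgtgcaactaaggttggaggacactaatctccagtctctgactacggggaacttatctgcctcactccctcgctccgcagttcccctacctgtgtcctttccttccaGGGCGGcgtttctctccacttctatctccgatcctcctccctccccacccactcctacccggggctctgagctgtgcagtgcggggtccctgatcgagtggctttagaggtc
GC content was 68.0% in the window of Npy, 61.7% in that of Npy5r, 57.7% in that of Npy2r and 51.7% in that of Npy1r. The GC box was present in 35.6% of all 32817 windows of this length, and the E-box in 7.15%. TATAAA (13.6% of all windows), the cyclic AMP response element TGACGTCA (1.79%) and its shorter form TGACG (20.8%), searched on both strands, were in none of the 4 windows. TGACG is contained in TGACGTCA, so these are not separate searches. These matches describe letters only.

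Per length of exon, the peptide transcript was far above its receptors. On a scale of CPM (reads scaled to a common library size) per kilobase of exon, Npy was at 107 ± 18.4 (SD, n = 28), higher than 98.2% of the tested genes. Npy2r was at 8.15 ± 1.1, Npy1r at 6.84 ± 0.497 and Npy5r at 1.76 ± 0.167, at the percentiles 67.5, 63.2 and 32.0. Npy was above each receptor in 28 of 28 mice, by a median of 13.2 times for Npy2r, 14.9 times for Npy1r and 58.3 times for Npy5r. Npy5r was the lowest of the 4 in every mouse. Npy1r and Npy2r, neighbours in this order, did not keep it: Npy1r was above Npy2r in 4 of 28 mice with the union of exons as the length, and in 11 of 28 with the longest transcript, with a ratio of Npy1r to Npy2r from 0.545 to 1.19 on the first scale.

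**Figure D1:**
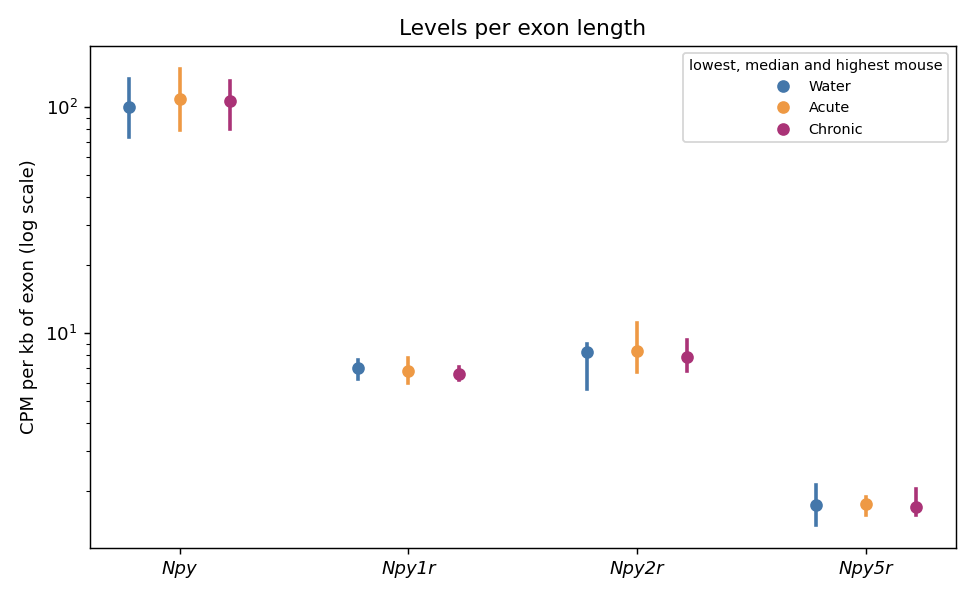
CPM per kilobase of exon (log axis) of the 4 genes in Water (blue, n = 10), Acute (orange, n = 9) and Chronic (purple, n = 9) mice; points are medians and lines run from the lowest to the highest mouse. Npy lies between 73.7 and 148, and the highest value of any receptor is 11.1.

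The remaining genes of the family were at or near the detection limit. Pyy and Ppy, which encode peptide YY and pancreatic polypeptide, had 0 counts in all 28 mice; 3 counts per mouse, the limit that 0 allows, correspond to 0.133 to 0.15 CPM. Npy4r, the receptor that prefers pancreatic polypeptide, had 17 counts in all over 12 mice and at most 2 in a mouse. Npy6r had 1 count in 1 mouse. None of these 4 passed the filter, and their group differences were not detectable at this depth. Total counts were 20004380 to 22569562 per mouse. In the first batch the medians were 21427343 for the Water group, 22423043.5 for Acute and 22225772 for Chronic. In the second batch they were lower in each group, at 20088116 for Water, 20241016 for Acute and 20811093 for Chronic.

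No member was called between any of the drinking groups. Calls rest on edgeR's quasi-likelihood test, which had batch in its model, at a p under 0.05 after adjustment over all tested genes. Of the 12 comparisons (4 genes by 3 contrasts), 0 passed, and 0 were under 0.05 before adjustment. The background was as low, since 0% of all tested genes were called for Acute against Water, 0.0184% (3 genes) for Chronic against Water and 0% for Chronic against Acute, and at an unadjusted p under 0.05 these shares were 9.52%, 10.5% and 4.44%. With DESeq2, 9, 38 and 0 genes were called, and no member was among them (Npy5r had no adjusted p there in the contrasts with Water). The 3 contrasts share groups, so they are not separate evidence. In each of the 12 comparisons the values of the groups overlapped.

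**Figure D2:**
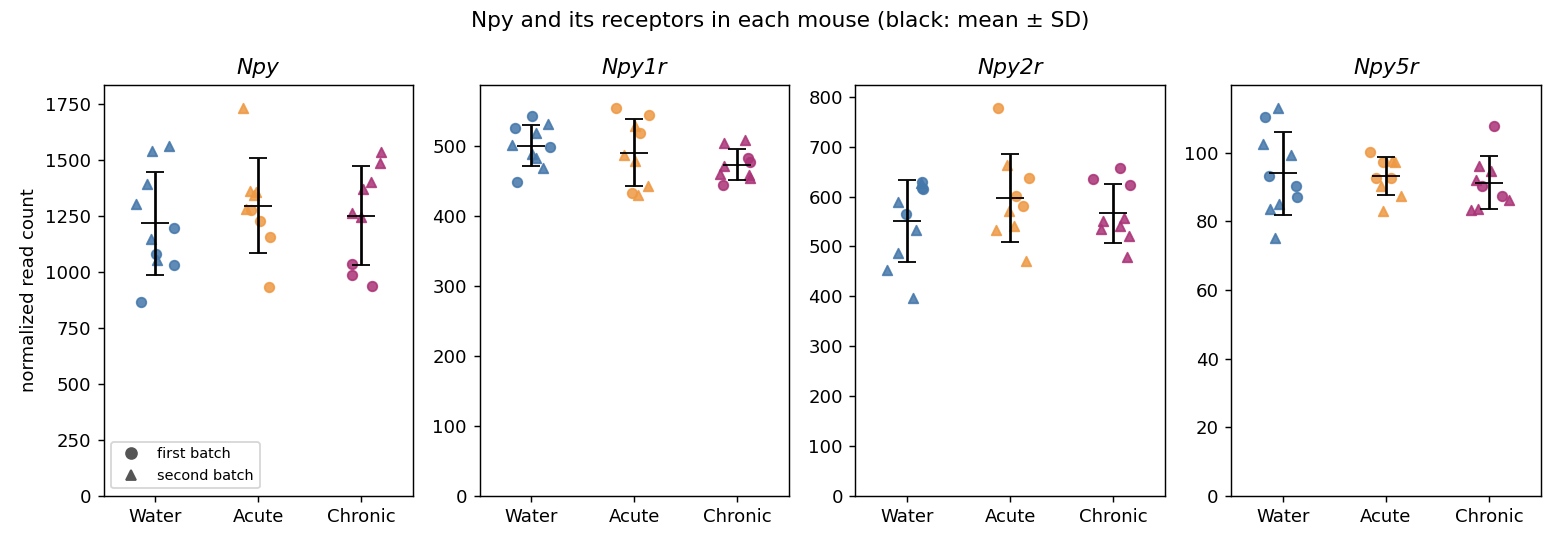
Normalized read count (axis from 0) of each gene in every mouse of the Water, Acute and Chronic groups; circles are the first batch, triangles the second, and black bars the mean ± SD. The groups overlap for all 4 genes, and for Npy the first batch sits lower than the second, with means of 1063 and 1373.

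For the ligand Npy, normalized read counts in Water mice ran from 863.7 through a median of 1170 to 1562 (mean 1215 ± 228.6, SD, n = 10). Acute mice ran from 929 through 1279 to 1729 (1294 ± 211.8, n = 9), and Chronic mice from 934.9 through 1259 to 1535 (1250 ± 220.8, n = 9). The highest mouse was an Acute mouse of the second batch and the lowest a Water mouse of the first, and the 3 ranges overlapped over most of their length. The log2 fold change from Water was 0.11 in Acute mice (SE 0.0751, 95% interval -0.0434 to 0.264, adjusted p = 0.649 by edgeR), an estimate of 7.94% with an interval from -2.97% to 20.1%. An exact permutation test of the mouse labels within batches, 2-sided, gave p = 0.227. For Chronic against Water the log2 fold change was 0.00906 (SE 0.0753, interval -0.145 to 0.163, edgeR adjusted p = 0.977, exact permutation p = 0.829), and for Chronic against Acute it was -0.101 (SE 0.0774, interval -0.26 to 0.0572, edgeR adjusted p = 0.998, exact permutation p = 0.209). The Chronic against Water estimate had opposite signs by batch (first -0.0818, second 0.0543), each smaller than its SE of 0.116 and 0.0915. The Chronic against Acute estimate was -0.216 in the first batch (SE 0.116) and -0.0301 in the second (SE 0.0957).

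Npy1r encodes the Y1 receptor, which is found on cell bodies and dendrites. Its counts ran from 448.5 through a median of 500.7 to 542.6 in Water mice (500.9 ± 29.59), from 429.6 through 487 to 554.3 in Acute mice (490.9 ± 48.4) and from 444 through 471.1 to 508.4 in Chronic mice (473.5 ± 21.97). Chronic mice ran from just under the lowest Water mouse to a little above the Water median, so the groups overlapped. The log2 fold change for Chronic against Water was -0.079 (SE 0.0476, interval -0.176 to 0.0184, edgeR adjusted p = 0.582), with 7 of 9 Chronic mice under the Water mean once batch means were removed. By batch it was -0.108 (first) and -0.0663 (second). The exact permutation p was 0.0546, where the smallest p that the 32340 regroupings allow is 3.09e-05. For Acute against Water the log2 fold change was -0.031 (SE 0.0475, interval -0.128 to 0.0662, edgeR adjusted p = 0.874, exact permutation p = 0.518) and for Chronic against Acute -0.048 (SE 0.049, edgeR adjusted p = 0.999, exact permutation p = 0.424).

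Npy2r encodes the Y2 receptor, the form also found on axon terminals. Its counts ran from 397.1 through a median of 577.4 to 628.4 in Water mice (551 ± 81.38), from 471.4 through 581.7 to 777.3 in Acute mice (597.6 ± 88.43) and from 478.9 through 550.3 to 656.6 in Chronic mice (566.6 ± 58.89). The highest value belonged to Acute mouse 33 and the lowest to a Water mouse of the second batch, and the groups overlapped. The log2 fold change from Water was 0.107 in Acute mice (SE 0.0676, interval -0.0318 to 0.245, edgeR adjusted p = 0.632, exact permutation p = 0.222) and 0.0558 in Chronic mice (SE 0.0678, interval -0.0829 to 0.195, edgeR adjusted p = 0.817, exact permutation p = 0.356). Within the batches the Acute estimate was 0.0968 and 0.111, and the Chronic estimate 0.0743 and 0.0456. For Chronic against Acute it was -0.0507 (SE 0.0694, edgeR adjusted p = 0.999, exact permutation p = 0.517).

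Npy5r encodes the Y5 receptor, known from work on feeding. Its counts were the lowest of the set, from 75.04 through a median of 91.83 to 113 in Water mice (93.97 ± 12.19), from 82.98 through 92.75 to 100.2 in Acute mice (93.16 ± 5.562) and from 83.17 through 90.33 to 107.9 in Chronic mice (91.31 ± 7.749). The Water mice spanned the ranges of both drinking groups. The log2 fold change was -0.0148 for Acute against Water (SE 0.0709, interval -0.16 to 0.13, edgeR adjusted p = 0.97, exact permutation p = 0.918), -0.0367 for Chronic against Water (SE 0.071, interval -0.182 to 0.109, edgeR adjusted p = 0.902, exact permutation p = 0.68) and -0.0219 for Chronic against Acute (SE 0.073, edgeR adjusted p = 0.999, exact permutation p = 0.617).

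**Figure D3:**
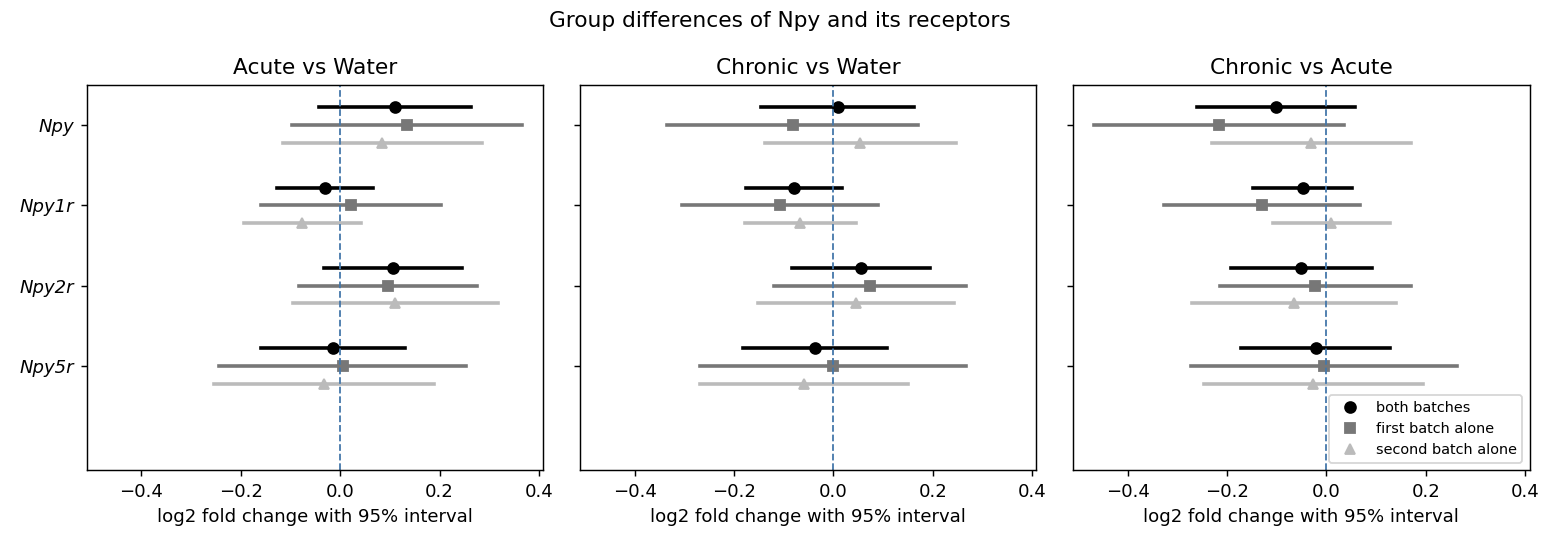
Log2 fold change (x axis) with its 95% interval from edgeR for each gene in the 3 contrasts, over both batches (black) and in the first (dark grey) and second batch alone (light grey). Every interval includes 0, and the estimates over both batches lie between -0.101 and 0.11.

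These intervals bound the differences that the data allow rather than show that levels were alike. In comparisons with Water over both batches, the bound farthest from 0 was 0.264, for Npy in Acute mice, and the intervals of Npy1r were the narrowest of the 4 genes. Standard errors of 0.0475 to 0.0774 compare with a median of 0.0631 over all tested genes for each contrast with Water and 0.0649 for Chronic against Acute. The effect of a group did not differ detectably between the batches for any member: in an edgeR interaction test, adjusted over all genes, the smallest unadjusted p of the 12 was 0.177 and the smallest adjusted p was 0.91. That test called 0%, 0.00615% and 0% of all genes in the 3 contrasts.

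Batch moved 2 of the members. Npy was higher in the second batch than in the first by 0.378 on the log2 scale (SE 0.0642, edgeR adjusted p = 1.94e-05), with mean counts of 1373 ± 163.7 (n = 17) and 1063 ± 133.5 (n = 11). Npy2r was lower in the second batch, with a log2 difference of -0.242 (SE 0.0566, edgeR adjusted p = 0.00084) and means of 532.3 ± 63.95 and 630.8 ± 54.99. Npy1r (-0.0367, adjusted p = 0.476) and Npy5r (-0.0628, adjusted p = 0.407) did not pass by edgeR. Differences between batches were common, with 46.2% of all tested genes called, 22% higher and 24.3% lower in the second batch. The batches were separate cohorts of mice, and 574 identifiers of the first table and 1596 of the second were not shared. As sources of the batch differences these cannot be told apart. The spread and correlations that follow have batch means removed.

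After batch and group were removed, the 4 genes varied between mice to different degrees. The residual SD of log2 CPM was 0.178 for Npy, 0.162 for Npy2r, 0.141 for Npy5r and 0.103 for Npy1r, against a median of 0.138 over all tested genes. As coefficients of variation these were 12.4%, 11.2%, 9.78% and 7.17%, where counting error alone gives 2.83%, 4.18%, 10.4% and 4.52%. The spread of Npy5r was thus no larger than its counting error, while that of Npy and Npy2r was well above theirs.

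Levels of the ligand and the Y2 receptor ran in opposite directions across mice. Over the 28 mice, log2 CPM of Npy and Npy2r had a Pearson r of -0.522 (permutation p = 0.00457 within batches, 0.0194 adjusted over the 18 correlations computed) and a Spearman rho of -0.469 (permutation p = 0.0115, adjusted 0.0688). Pearson r by batch was -0.466 (first) and -0.562 (second), and it was -0.41 without the 2 mice farthest from the median of Npy. The relation passed by Pearson and not by Spearman, and its Pearson call was lost without Acute mouse 33 or Water mouse 5 (adjusted p up to 0.0596). Among the 11722 genes averaging 100 counts or more, 355 had a lower r with Npy than Npy2r had. The other 5 pairs of members did not pass: Npy with Npy5r had an r of 0.281, the neighbours Npy1r and Npy5r 0.216, Npy with Npy1r -0.0864, Npy1r with Npy2r -0.188 and Npy2r with Npy5r -0.217 (adjusted permutation p from 0.351 to 0.81). Npy with Npy1r had opposite signs in the batches, 0.415 and -0.561, as had Npy1r with Npy2r, -0.683 and 0.0894.

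The receptors also differed in how they moved with marker genes of the nuclei and cells in the punch. A score was the mean log2 CPM of a list, for basolateral excitatory neurons Slc17a7, Rspo2, Neurod6, Tbr1 and Etv1, and for interneurons Sst, Cort, Nos1, Chodl, Lhx6, Sox6, Gad1, Gad2, Slc32a1 and Tacr1, of which Gad1, Gad2 and Slc32a1 mark any GABAergic neuron, those of the central amygdala included. Npy2r fell as the basolateral score rose, with r = -0.582 (permutation p = 0.00016, adjusted 0.00288) and rho = -0.483 (adjusted 0.0622), with batch values of -0.79 and -0.55 and an r of -0.497 without the 2 mice farthest in Npy2r. Npy2r rose with the interneuron score, with r = 0.542 (permutation p = 0.00134, adjusted 0.0121), rho = 0.496 (adjusted 0.0622), 0.694 and 0.513 in the batches, and 0.475 without the 2 farthest mice.

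Npy1r had the opposite signs. It rose with the basolateral score, with r = 0.553 (permutation p = 0.00539, adjusted 0.0194), rho = 0.452 (adjusted 0.0711) and 0.566 without the 2 mice farthest in Npy1r. This relation held in the first batch (0.865) and not in the second (0.0558). With the interneuron score its r was -0.556 (permutation p = 0.00443, adjusted 0.0194), its rho -0.476 (adjusted 0.0711), -0.593 and -0.508 in the batches, and -0.432 without the 2 farthest mice.

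In all, 5 of the 18 correlations passed by Pearson and 0 by Spearman. Acute mouse 33, with a basolateral score of -0.4115 and an interneuron score of 0.2157 relative to its batch, and Chronic mouse 38, at -0.4099 and 0.2301, stood at the ends of these scores. Without Acute mouse 33, 1 of 18 passed, that of Npy2r with the basolateral score, whose r stayed between -0.634 and -0.487 when any 1 mouse was left out. Without both mice, r with the basolateral score was -0.52 for Npy2r and 0.357 for Npy1r. Without Acute mouse 4 as well, the next farthest in this score, it was -0.361 for Npy2r and 0.386 for Npy1r (n = 25), so the relation of Npy2r rests in part on these 3 mice. In the interneuron score Water mouse 43 was farthest out, at -0.2418, and without it, Chronic mouse 38 and Acute mouse 33 the r with this score was 0.439 for Npy2r and -0.369 for Npy1r. Neither Npy nor Npy5r passed with any score: the r of Npy with the interneuron score was 0.037 (adjusted permutation p = 0.855) and that of Npy5r -0.0806 (adjusted 0.81). With the central amygdala score (Prkcd, Crh, Tac2, Cyp26b1, Pdyn) the r of Npy2r was 0.343 (adjusted permutation p = 0.243).

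**Figure D4:**
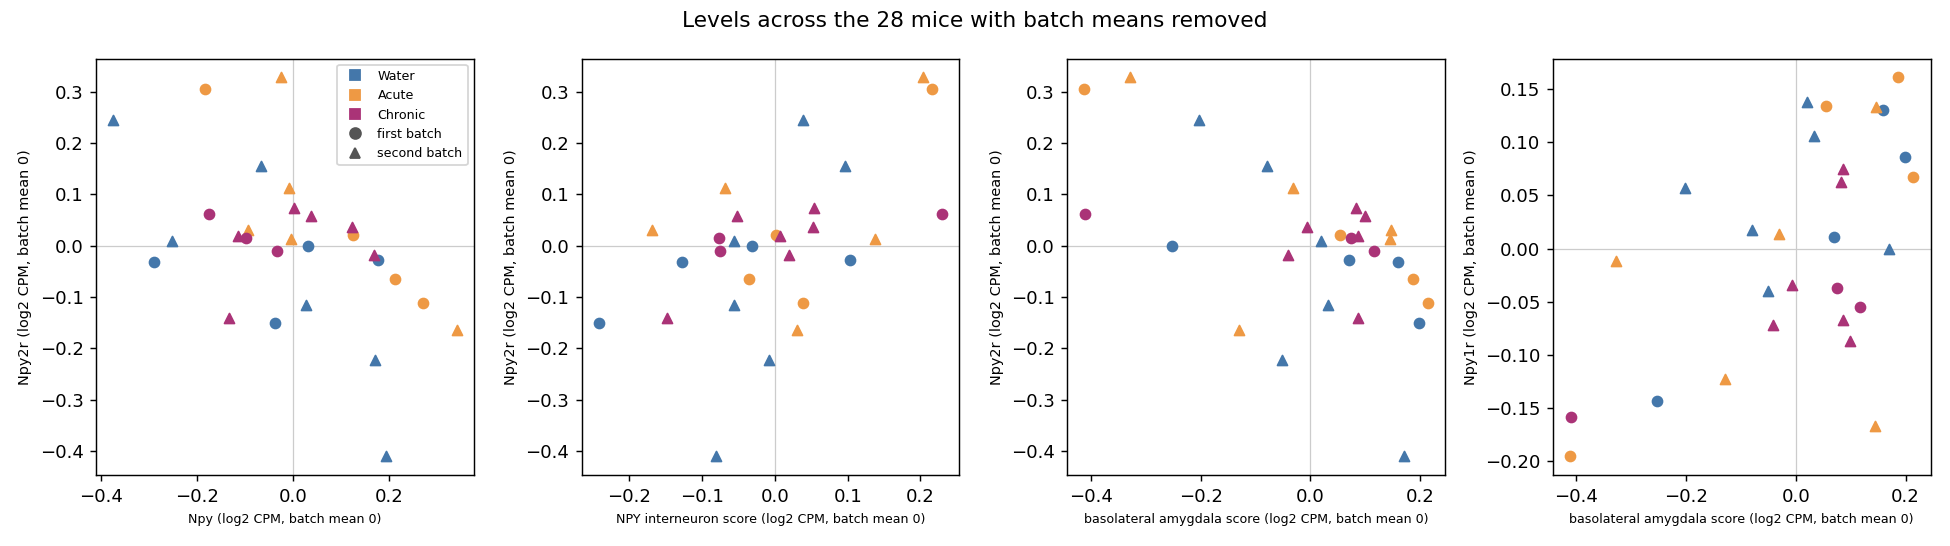
Log2 CPM of Npy2r against Npy, the interneuron score and the basolateral score, and of Npy1r against the basolateral score, each point 1 mouse with its batch mean set to 0 (colors are groups, circles the first and triangles the second batch). Npy2r slopes down against Npy (r = -0.522) and the basolateral score (r = -0.582) and up against the interneuron score (r = 0.542).

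Single genes of these lists, chosen for display after the scores had been seen, were set against each member in 60 correlations adjusted together. For Npy2r, 4 of 5 basolateral genes had a negative r and 3 passed: Tbr1, a transcription factor of excitatory projection neurons, at -0.759 (permutation p = 1e-05, the smallest that the resamples can give, adjusted 0.0006; rho -0.629, adjusted 0.012), Neurod6 at -0.611 (adjusted permutation p = 0.0066; rho -0.386, adjusted 0.146) and Slc17a7, the vesicular glutamate transporter, at -0.582 (adjusted permutation p = 0.0066; rho -0.482, adjusted 0.075). The r of Tbr1 was -0.861 and -0.829 in the batches, and -0.682 without the 2 mice farthest in Npy2r. Of the 10 interneuron genes, 5 passed with Npy2r. Of all other 16265 tested genes, 6.04% had an r with Npy2r of at least 0.483 in size, that of the weakest gene that passed, beside 6 of 10 interneuron and 3 of 5 basolateral genes. The cutoff was taken from the list genes themselves and both signs count, so these shares describe the lists and are no test. Lhx6 (0.542), Gad2 (0.523), Slc32a1 (0.495) and Gad1 (0.483) were positive, whereas Cort, which encodes cortistatin, was negative at -0.531 (adjusted permutation p = 0.0349; rho -0.61, adjusted 0.0156), with -0.675 and -0.483 in the batches. By Spearman, 2 of these 5, Lhx6 and Cort, passed, as did Chodl (rho 0.554, adjusted permutation p = 0.0373), whose Pearson r of 0.495 did not (adjusted 0.0505). The other interneuron genes, Sst (r = -0.033), Nos1 (0.157), Sox6 (0.349) and Tacr1 (0.426), passed with Npy2r by neither measure. The same held for Rspo2 (-0.197) and Etv1 (0.00541) of the basolateral list.

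For Npy1r, Tacr1, the substance P receptor, was the 1 gene of 15 that passed, at -0.627 (adjusted permutation p = 0.0096; rho -0.662, adjusted 0.012), with -0.634 and -0.636 in the batches. An r of at least this size with Npy1r was found in 0.473% of the other tested genes, a share at a cutoff set by Tacr1 itself and thus no test. All 5 basolateral genes had a positive r with Npy1r, from 0.375 to 0.517, and none passed. Npy itself passed with none of the 15: Sst and Cort, with which it shares interneurons, had an r of 0.12 and 0.215, and Lhx6 one of -0.454 (adjusted permutation p = 0.0705). Npy5r passed with none either.

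**Figure D5:**
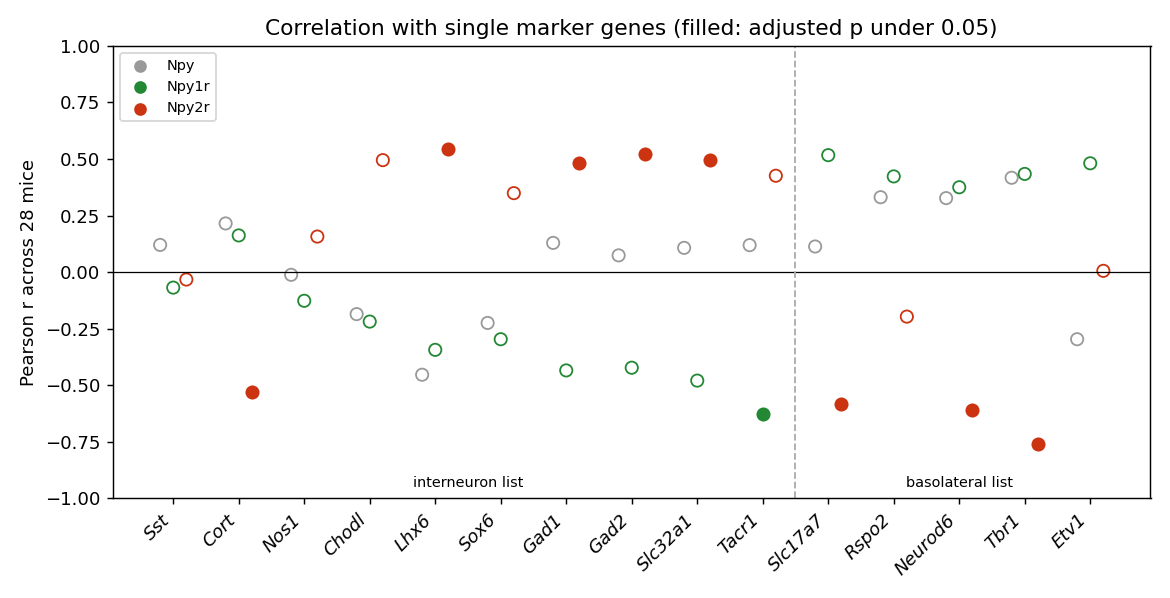
Pearson r across the 28 mice (y axis) of Npy (grey), Npy1r (green) and Npy2r (red) with the 10 interneuron and 5 basolateral genes; filled points have an adjusted permutation p under 0.05. Npy2r and Npy1r lie on opposite sides of 0 for most genes, and Tbr1 with Npy2r has the lowest value, -0.759.

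The genes most like each member across mice, again among genes averaging 100 counts or more, are given as a description over the 28 mice, which share library and punch. For Npy they were Ndrg4 (r = 0.866), Cdk16 (0.846) and Spry2 (0.789). For Npy1r they were Gabra2, a GABA-A receptor subunit (0.774), the cadherin Cdh7 (0.763) and Lgi1, a secreted synaptic protein (0.749). For Npy2r they were Klhdc10 (0.85), Ahi1 (0.814) and Tmem255a (0.803). Npy5r had weaker matches, Vsig2 (0.608), Sowahb (0.591) and Zfp524 (0.578).

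Genes that make, break down or transmit the peptide signal were counted from lists chosen with the members. Of 8 genes of peptide processing and breakdown (Pcsk1, Pcsk2, Pcsk1n, Scg5, Cpe, Pam, Dpp4, Mme), all were tested and 0 were called by edgeR in any contrast, while DESeq2 called 1, Pcsk1n, for Chronic against Water. Their median log2 fold change was 0.00947 for Acute and -0.0184 for Chronic against Water, beside medians over all genes of 0.00115 and 0.0022. Pcsk1n encodes proSAAS, an inhibitor of the convertase PC1/3. In Acute mice it had a log2 fold change of 0.143 (SE 0.0382, edgeR unadjusted p = 0.000815, adjusted 0.327) and in Chronic mice one of 0.175 (SE 0.0382, unadjusted p = 8.11e-05, adjusted 0.157), higher than the Water mean in 9 of 9 mice each with batch means removed, and 0.21 and 0.152 in the batches for Chronic mice. By DESeq2 the adjusted p for Chronic against Water was 0.0131, and with ComBat-seq and DESeq2 it was 0.0471 for Acute and 0.00262 for Chronic against Water. The study named this gene from these same mice, so its values are no independent evidence. Mme, which encodes the peptidase neprilysin, had -0.257 in Chronic mice (SE 0.166, edgeR adjusted p = 0.61).

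Of 10 genes of receptor coupling (inhibitory G proteins, inward rectifier channels, arrestins and Grk2), 0 were called by edgeR or DESeq2. Gnai2, an inhibitory G protein alpha subunit, had a log2 fold change of 0.0617 in Acute mice (SE 0.0327, edgeR adjusted p = 0.56) and 0.0934 in Chronic mice (SE 0.0328, edgeR adjusted p = 0.29). Kcnj6, a channel subunit opened by these receptors, had -0.143 in Acute mice (SE 0.0839, edgeR adjusted p = 0.595). For Chronic against Acute the smallest p of both lists belonged to Kcnj9 (0.133, SE 0.069), Arrb2 (0.0632, SE 0.0418) and Gnao1 (0.0375, SE 0.0286), each with an edgeR adjusted p of 0.998. By batch Kcnj9 had 0.15 (first) and 0.109 (second). Arrb2 (-0.0429 and 0.115) and Gnao1 (-0.00745 and 0.0667) turned sign between the batches.

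Cell type markers were compared for the same contrasts, and 0 genes of any list were called by edgeR or DESeq2. The summed level of the 10 interneuron genes ran from 1130 to 1720 CPM in Water, 1360 to 1970 in Acute and 1340 to 1830 in Chronic mice, and that of the 5 basolateral genes from 1340 to 2040, 1170 to 2050 and 1290 to 2060. Across mice the r of Npy with the interneuron score was only 0.037. The interneuron genes had a median log2 fold change of 0.109 for Acute against Water (7 of 10 positive; 0.155 and 0.0518 by batch), beside 0.11 for Npy, and of 0.0449 for Chronic against Water (8 of 10 positive; 0.16 and 0.00227 by batch). For the basolateral genes these medians were -0.0407 and 0.0221, the latter with opposite signs by batch (-0.11 and 0.0599). Central amygdala genes had positive log2 fold changes in 5 of 5 for Acute against Water (median 0.274; sums of 197 to 356 CPM in Water and 282 to 402 in Acute mice). By batch this median was 0.395 (first) and 0.0924 (second). It was 0.106 for Chronic against Water (4 of 5 positive, with 0.195 and 0.00285 by batch). For Chronic against Acute it was -0.168 (5 of 5 negative, with -0.198 and -0.0522 by batch). Striatal genes (Drd1, Drd2, Adora2a and others), which are abundant in the neighbouring striatum and are also expressed in parts of the amygdala, had negative ones in 7 of 8 for Chronic against Water (median -0.348; sums of 345 to 1270 CPM in Water and 393 to 919 in Chronic mice). By batch it was -0.144 (first) and -0.499 (second). The striatal median was 0.0439 for Acute against Water (5 of 8 positive; 0.222 and -0.0856 by batch) and -0.386 for Chronic against Acute (8 of 8 negative). Choroid plexus genes ran from 12.5 to 4300 CPM over all mice. Median log2 fold changes for Acute and Chronic against Water were 0.134 and 0.0929 for oligodendrocyte genes (6 of 7 listed were in both tables), -0.0389 and -0.0107 for astrocyte genes and 0.000922 and -0.017 for microglial genes. The oligodendrocyte medians turned sign between batches, with 0.369 and -0.0119 for Acute and 0.352 and -0.0802 for Chronic mice, and so did the astrocyte medians, with 0.0217 and -0.0859 for Acute and 0.0995 and -0.0734 for Chronic mice. No tested marker of a cell type list was at 0 in every mouse. The part of these shifts in the members' values was not tested.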

How the data were processed

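The data are paired-end RNA-seq of the amygdala of 28 female mice from 2 batches. The authors quantified reads against a GRCm38 transcriptome with Salmon 0.14.1 after FastQC 0.11.8 (versions from the submitters' processing notes), summarized them by gene and deposited 1 table per batch of estimated counts, rounded to whole numbers and neither normalized nor batch-adjusted. Each mouse's group and batch were taken from its label. Gene identifiers, stripped of their version, joined both tables, which left 574 identifiers of the first and 1596 of the second table unused. Same-group pairs of libraries within a batch were checked for duplicates, and none of 55 was one.

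Tools were scipy 1.17.1 and, under R 4.3.3, limma 3.58.1, sva 3.50.0, edgeR 4.0.16 and DESeq2 1.42.0. The test between groups was edgeR's quasi-likelihood test (TMM, batch as a covariate, all 3 groups, mean of at least 10 counts, Benjamini-Hochberg over all genes, threshold 0.05, 2-sided) and was tested on simulated data. Normalized read counts are CPM scaled to the mean effective library size of 20700305. Exact tests permuted mouse labels within batches on log2 CPM (prior count 2), over 32340 regroupings against Water and 16170 for Chronic against Acute. Correlations used 100000 permutations within batches. Counting limits cover counting error only.

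The members and lists were chosen with earlier results of these data known. The text names the members, the genes of the family list, up to 3 genes with the smallest p per comparison from the processing and coupling lists, and the 3 genes most like each member. Marker genes named one by one, in the 60 single-gene correlations, fall outside this rule and were chosen after the values were seen. Alternatives were DESeq2, limma-voom with quality weights, ComBat-seq with DESeq2 (the order of the study's methods), RLE size factors, no filter and a mean of 100 counts, only the groups compared, each batch alone, a replicate block, and each mouse left out. Blood ethanol, intake, estrous phase and qPCR were not analysed here.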

Additional observations from a re-analysis of the deposited data

Results flagged for a closer look

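Npy2r in Chronic mouse 1 (second batch) was flagged because the lowest Chronic mouse lay far from the other 8. Its normalized read count was 478.9 and its log2 CPM -0.142 relative to its batch, where the Chronic mean was 0.00976 ± 0.0653 (SD, n = 9). The gap to the next mouse took up 0.571 of the whole Chronic range. Chance flags about 1 in 20 groups, and 12 groups (4 genes by 3 groups) were looked at. On this batch-centred log2 scale the Water mean was -0.0555, and Chronic mouse 1 was the 1 of 9 Chronic mice below it.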

How the results depend on the processing

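No member was called under any alternative that tested it or with any mouse left out (adjusted p from 0.45 to 1 over the alternatives, and 0.505 to 1 with a mouse left out). Npy5r was not tested with the minimum mean of 100 counts, and DESeq2's own filter left it without an adjusted p for Acute and Chronic against Water, and with ComBat-seq for Chronic against Water. The number of genes called over the whole table did move. For Acute against Water it was 9 with DESeq2, 30 with ComBat-seq and DESeq2, 3 with limma-voom, 1 without the filter and 0 to 2 with a mouse left out (1 without Acute mouse 34, 2 without Chronic mouse 38). For Chronic against Water it was 38 with DESeq2, 88 with ComBat-seq and DESeq2, 0 in the first batch alone and 2 to 6 with a mouse left out (5 without Chronic mouse 37, 6 without Water mouse 3). For Chronic against Acute it was 1 with limma-voom, 1 without the filter and 0 with any mouse left out. The cause was not tested. Signs turned for Npy1r (0.0214) and Npy5r (0.00495) in Acute against Water in the first batch alone, for Npy in Chronic against Water with limma-voom (-0.00726) and in the first batch alone (-0.0818), and for Npy1r in Chronic against Acute in the second batch alone (0.0102). With a mouse left out, Npy ran from 0.0713 (without Acute mouse 3) to 0.139, Npy1r from -0.0548 (without Water mouse 40) to -0.00881 (without Acute mouse 33) and Npy2r from 0.0676 (without Acute mouse 33) to 0.139 in Acute against Water, and Npy2r from 0.0186 (without Water mouse 3) to 0.0939 (without Water mouse 5) in Chronic against Water. In Chronic against Acute, Npy ran from -0.126 to -0.0603 (without Acute mouse 3), Npy1r from -0.0706 to -0.0278 (without Acute mouse 34), Npy2r from -0.0789 to -0.0112 (without Acute mouse 4) and Npy5r from -0.0553 to -0.00356 (without Chronic mouse 38). The range of Npy5r was -0.0457 to 0.021 for Acute against Water, and that for Chronic against Water -0.0688 to 0.00154, while Npy ran from -0.027 to 0.0384 in Chronic against Water.

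Of the 18 correlations, 3 passed in the first batch alone, 0 in the second and 1 to 5 with a mouse left out (1 without Acute mouse 33, 3 without Chronic mouse 38). Of correlations that did not pass, Npy with the interneuron score turned to -0.0274 with group means also removed and -0.0131 in the first batch alone. In the first batch alone Npy with Npy1r was 0.415, Npy with the central amygdala score 0.239 and Npy5r with it 0.125. In the second batch alone Npy1r with Npy2r was 0.0894 and Npy1r with the central amygdala score 0.0401. In the first batch alone Npy1r with Npy2r was -0.683 and passed (adjusted permutation p = 0.0391), although it did not pass over both batches. With a mouse left out, Npy with Npy1r ran from -0.188 to 0.0073, Npy with the interneuron score from -0.0436 to 0.135, Npy with the central amygdala score from -0.132 to 0.0764 and Npy1r with it from -0.187 to 0.0403.

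In the second batch the groups share replicate numbers. Over 16 pairs that share a number, deviations from the group means had correlations from -0.346 to 0.338 (median -0.00798, 4 over 0.1; other numbers 0.0232), and 1 of 17 mice was closest to a mouse of its own number, so the numbers were not taken to pair the mice. With a replicate block the calls stayed at 0, 3 and 0 genes, and the log2 fold changes of Npy, Npy1r, Npy2r and Npy5r were 0.105, -0.0341, 0.121 and -0.00874 for Acute against Water and 0.0149, -0.0789, 0.0622 and -0.0333 for Chronic against Water. Depth limits Npy5r, whose counting error was as large as its spread between mice.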
